A study of Mus musculus with 3 samples.

Results

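The genes described here encode the proteins through which a macrophage senses and degrades extracellular nucleotides: the ATP-gated channels P2rx4 and P2rx7, the P2Y receptors P2ry2, P2ry6, P2ry12 and P2ry13, the ectonucleotidases Entpd1 and Nt5e, and the adenosine receptors Adora2a and Adora2b. They were taken by gene symbol, and all 10 were found among the 55536 annotated genes of the tables. The series holds 1 group of 3 libraries of ribosomal RNA-depleted total RNA from the cytosolic fraction of bone-marrow-derived macrophages (BMDM) of C57BL/6J mice, each stimulated with Lipid A, the membrane-anchoring part of bacterial lipopolysaccharide, at 100 ng/ml for 30 min. Labels number them as biological replicates 1, 2 and 3 but give all 3 the same donor record, and sex and age were not collected, so the spread between them may be technical. No unstimulated culture and no nuclear fraction was analysed here, so the values are levels after stimulation and not responses to it.

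Dying, stressed or activated cells release ATP, UTP, ADP and UDP, which act on neighbouring cells as danger and "find me" signals. P2X receptors are cation channels that open when ATP binds, and P2Y receptors are G protein-coupled receptors for purine or pyrimidine nucleotides. The ectonucleotidase CD39, encoded by Entpd1, converts ATP and ADP to AMP at the cell surface. CD73, encoded by Nt5e, converts AMP to adenosine, which acts on receptors that raise cyclic AMP and damp inflammatory output in macrophages.

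In the deposited gene values, the arm that senses and removes nucleotides was present at high to moderate levels. The genes that make and sense adenosine lay below 1 TPM there. Levels are given in TPM, a share of all transcripts in a library that corrects for transcript length and can therefore be compared between genes. Averaged over libraries, P2rx4, Entpd1, P2ry6 and P2rx7 lay above 10 TPM, and P2ry2, P2ry13 and P2ry12 between 1 and 10 TPM. Adora2b, Adora2a and Nt5e lay below 1 TPM. The median of log2(TPM + 1) was 2.23 ± 0.17 over the 10 genes and 0.23 ± 0.02 over the 22015 nuclear-encoded protein-coding genes (SD, n = 3 libraries). Over the 13237 genes of any type averaging at least 10 counts it was 2.43 ± 0.27, so the 10 genes were not above detected genes as a set. In bulk RNA of this kind, fewer cells expressing a gene and less RNA per cell cannot be told apart.

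**Figure D1:**
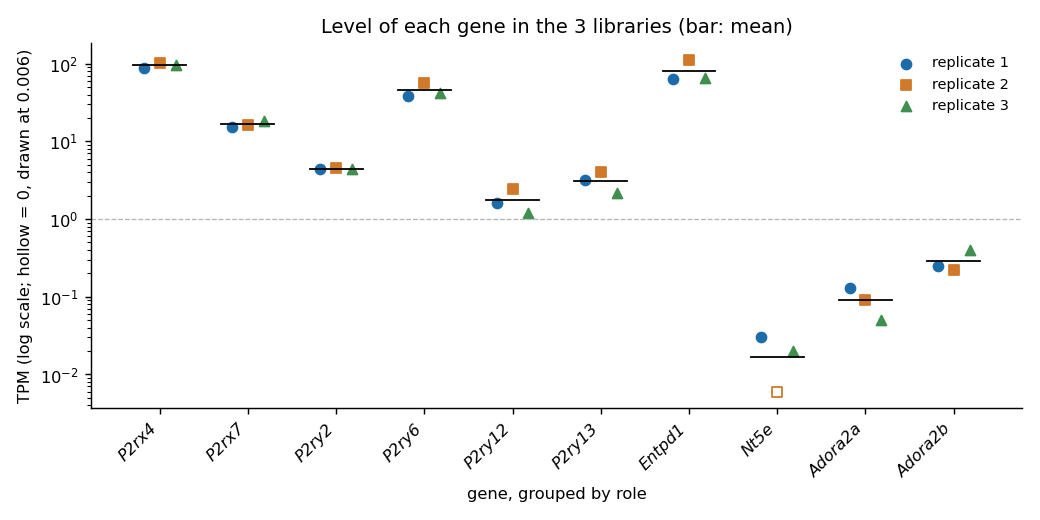
TPM of each gene (log axis) in the 3 libraries, with the mean as a bar, the genes in the order channels, P2Y receptors, ectonucleotidases, adenosine receptors, and the dashed line at 1 TPM. P2rx4 and Entpd1 sit highest, with means of 95.5 and 80.3 TPM, and Nt5e, Adora2a and Adora2b sit below 1 TPM in every library; the hollow square is the replicate 2 value of 0 for Nt5e.

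Libraries differed in depth and composition. They held 23403552, 50435201 and 35785896 expected counts on genes in replicates 1, 2 and 3. Nuclear protein-coding genes took 22.3%, 34.4% and 24.3% of all TPM; TPM are shares, so a larger protein-coding share raises the TPM of messenger RNAs. Levels between libraries were therefore also read as CPM, counts relative to library size after scaling by TMM factors. Of 7 macrophage markers all were above 10 TPM, Lyz2 being the highest. The microglial gene Tmem119 was at most 0.14 TPM, and Sall1 was at 0. Stromal markers stood apart in replicate 1, with 5467.92, 15 and 37 summed counts in replicates 1, 2 and 3 and Col1a1 the highest. Their part in the differences between libraries given below was not tested.

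P2rx4, a channel found largely in lysosomes, was the highest of the 10 genes. It lies on chromosome 5 at 122707544 to 122729738 of mm10, plus strand, and had 88.0, 103 and 95.4 TPM in replicates 1, 2 and 3, a mean of 95.5 ± 7.55 TPM (SD, n = 3). It ranked 441 among the 22015 nuclear protein-coding genes, above 98% of them.

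P2rx7, which opens at high ATP concentrations and is the classical trigger of inflammasome activation, ends 16111 bases before P2rx4 begins, on the same strand, at chromosome 5, 122643911 to 122691432. It had 15.1, 16.3 and 18.3 TPM, a mean of 16.6 ± 1.65 TPM (SD, n = 3), which was above 88.3% of nuclear protein-coding genes. P2rx4 exceeded it in every library, by 5.83-fold, 6.34-fold and 5.2-fold in TPM. That ratio depended on which transcripts were counted. On protein-coding transcripts alone, a choice made after the data were seen, it was 8.58 ± 0.667 (SD, n = 3).

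On average over the first kind of transcript table, the largest non-coding share of P2rx7 belonged to a retained-intron transcript, ENSMUST00000197042.1. All of its 2103 bases lie inside the 3483-base last exon of the full-length coding transcript, ENSMUST00000100737.9, so reads from the 2 transcripts cannot be told apart there. In the deposited percentages the retained-intron transcript took 32.7%, 19.8% and 20.0% of the gene's TPM in replicates 1, 2 and 3. In the second kind of transcript table, made by another estimator, it took 5.16%, 0% and 0%. The microRNA gene Mir8115, also inside P2rx7, was listed at 0. The full-length transcript held 52.6%, 68.7% and 48.1% of TPM in the first kind of table, and 80.5 ± 4.70% of the gene's counts (SD, n = 3).

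The 4 annotated coding transcripts of P2rx7 with 13 exons have 3 different coding ends, of which a long and a short form are shown here. The long form, which is the full-length transcript above, reads into a last exon that encodes the extended intracellular tail particular to this channel among P2X proteins; its coding sequence is 1785 bases. The short form, ENSMUST00000121489.7, joins the same twelfth exon to a more distant last exon and ends after 1 further codon, with a coding sequence of 1293 bases. Both junctions are shown because this is where the forms part; mm10, plus strand, capitals mark the last exon.
P2rx7 long-form junction, chr5:122676752-122680824: caagaagttccaAGACCCCAGATGGACTTC
P2rx7 short-form junction, chr5:122676752-122683180: caagaagttccaACCTAG
Of the TPM given to these 2 transcripts, the long form took 91.9%, 93.0% and 90.5%, a mean of 91.8 ± 1.28% (SD, n = 3). The second table gave it 95.2 ± 1.92%. ENSMUST00000199371.1 has the long end with another first exon, and ENSMUST00000031425.14 has the remaining end. They took 0.770 ± 0.476% and 0.913 ± 0.434% of the gene's TPM in the first table, and 2.91 ± 1.63% and 2.98 ± 1.48% in the second (SD, n = 3), where the short form took 3.11 ± 0.984%. Over all 4 transcripts, a grouping chosen after the data were seen, those with the long end took 90.6 ± 1.5% in the first table and 91.6 ± 0.768% in the second.

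P2rx4 is annotated with 9 transcripts, of which 3 carried most of its TPM. The full-length transcript, ENSMUST00000031429.13, contains 12 exons. ENSMUST00000081554.12 lacks the sixth exon and ENSMUST00000142664.2 lacks the tenth. These exons have 81 and 66 bases, which are 27 and 22 codons, so that leaving either out keeps the reading frame. Coding sequences were 1164, 1083 and 1098 bases long in the full-length transcript, the one without the sixth exon and the one without the tenth.

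**Figure D2:**
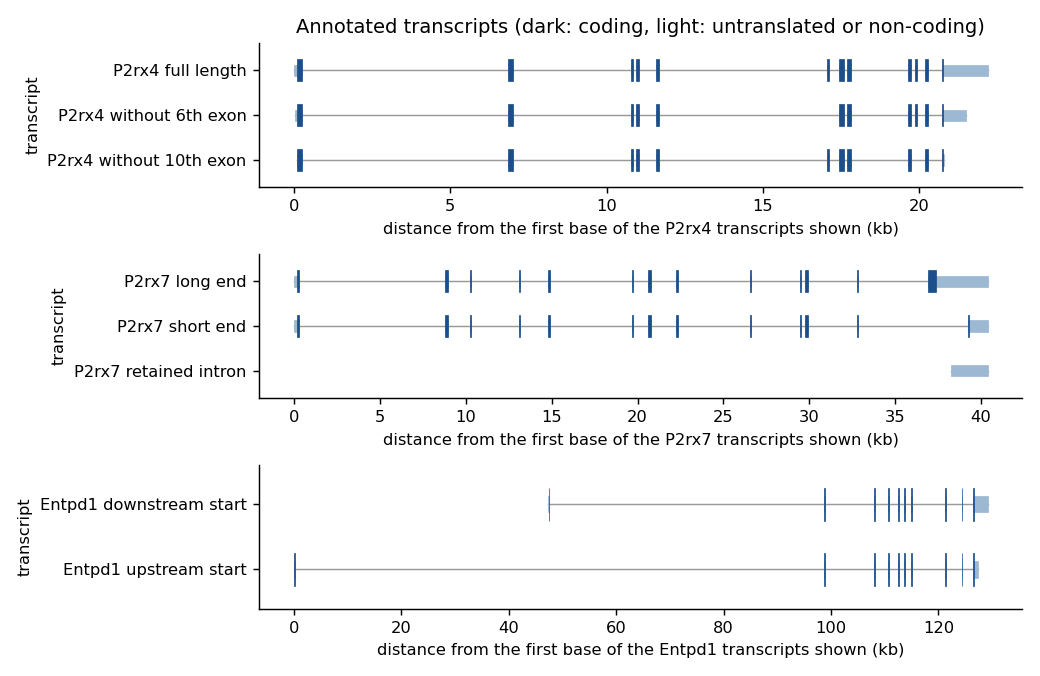
Exon maps of the main transcripts of P2rx4, P2rx7 and Entpd1, to scale, as distance in kb from the first base of the transcripts shown for each gene, dark blocks coding and light blocks untranslated or non-coding. The middle P2rx4 transcript lacks the sixth exon of 81 bases, the retained-intron transcript of P2rx7 lies inside the 3483-base last exon of the long form, and the Entpd1 transcripts begin 47373 bases apart.

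The sixth exon is shown beside its counterpart in P2rx7 because it is the stretch that separates the P2rx4 forms and has the same length in both channel genes; mm10, plus strand, capitals mark bases identical between the 2 exons.
P2rx4 sixth exon, chr5:122724594-122724674: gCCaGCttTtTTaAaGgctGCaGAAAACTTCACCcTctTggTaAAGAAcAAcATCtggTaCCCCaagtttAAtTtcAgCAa
P2rx7 sixth exon, chr5:122663577-122663657: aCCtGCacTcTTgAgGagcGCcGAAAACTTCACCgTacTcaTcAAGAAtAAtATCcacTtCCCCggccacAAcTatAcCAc
P2rx4 junction that skips the sixth exon, chr5:122719212-122725004, capitals mark the exon after the junction: cgctggtgtgccaacGAGGAATATCCTCCC
Aligned without gaps, 47 of the 81 bases (58.0%) were identical. Of the exons of the full-length P2rx4 and P2rx7 transcripts paired by number, 5 had equal lengths. No annotated P2rx7 transcript skipped its sixth exon. Of its 8 transcripts 4 have 13 exons, and the others have fewer. The retained-intron transcript lies inside the last exon and could not skip the sixth.

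Among P2rx4 transcripts that span this region, those with the sixth exon took 50.0%, 63.5% and 52.3% of TPM in replicates 1, 2 and 3, a mean of 55.3 ± 7.23% (SD, n = 3). In the second table they took 41.5%, 45.7% and 40.7%, a mean of 42.6 ± 2.69%. Over both tables the share with the exon ran from 40.7% to 63.5%, and the tables differed on which form was the larger on average.

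For the tenth exon the tables were further apart. Transcripts with it took 90.0 ± 2.04% of the classified TPM in the first table and 67.4 ± 2.68% in the second (SD, n = 3). Single transcripts moved more: the full-length transcript held 43.2 ± 7.84% of the gene's TPM in the first table and 6.55 ± 0.873% in the second. The full-length transcript and the one without the sixth exon also differ in their annotated ends, with last exons of 1452 and 758 bases, so the shares do not isolate the exon.

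**Figure D3:**
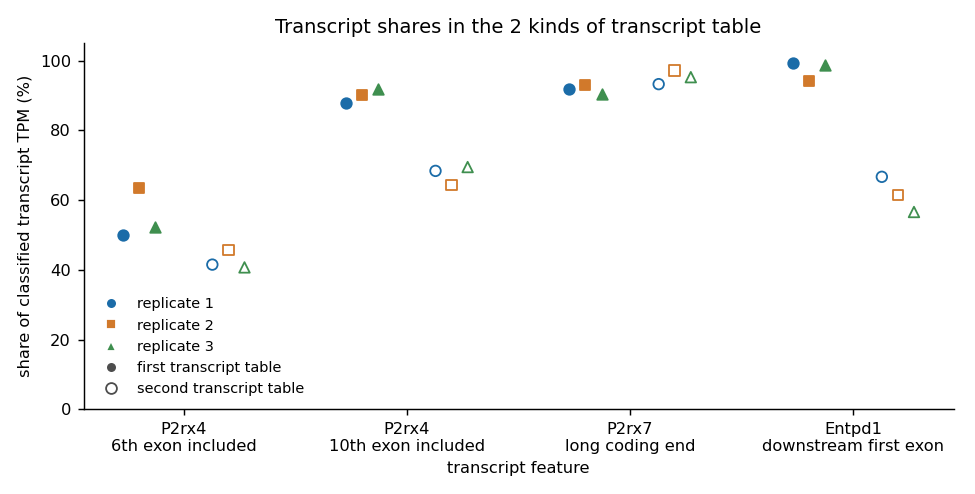
Share of the classified transcript TPM (percent) that carried each feature, filled symbols for the first transcript table and open symbols for the second, 1 symbol per library. The long form of P2rx7, as a share of the long and the short form, lies above 90% in both tables, whereas the P2rx4 exons and the Entpd1 first exon lie at different shares in the 2 tables, 97.5% and 61.6% on average for Entpd1.

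Among the P2Y genes, P2ry6, the receptor for UDP, was the highest. It lies on chromosome 7 at 100937630 to 100974649, minus strand, and had 38.7, 56.5 and 42.3 TPM, a mean of 45.8 ± 9.41 TPM (SD, n = 3), above 95.9% of nuclear protein-coding genes. Its main transcript took 98.2 ± 0.750% of its TPM in the first table and 97.1 ± 0.622% in the second. An unclassified gene on the opposite strand inside its span, Gm44545, was listed at 0.173 ± 0.234 TPM.

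P2ry2, the receptor for ATP and UTP through which phagocytes sense nucleotides from dying cells, lies 21918 bases from P2ry6 on the same strand, at chromosome 7, 100996568 to 101012866. It had 4.37, 4.55 and 4.46 TPM, a mean of 4.46 ± 0.09 TPM (SD, n = 3). P2ry6 exceeded its neighbour in every library, by 8.86-fold, 12.4-fold and 9.47-fold in TPM. The main transcript of P2ry2 took 80.4 ± 5.92% of its TPM in the first table and 64.8 ± 6.32% in the second (SD, n = 3).

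P2ry13 and P2ry12, both Gi-coupled receptors for ADP, lie 5389 bases apart on the minus strand of chromosome 3, at 59207892 to 59210882 and 59216272 to 59262871. P2ry12 is known as the target of antiplatelet drugs and as a gene of resting microglia. P2ry13 had 3.19, 4.0 and 2.15 TPM, a mean of 3.11 ± 0.927 TPM, and P2ry12 had 1.59, 2.44 and 1.20 TPM, a mean of 1.74 ± 0.634 TPM (SD, n = 3 each). P2ry13 was the higher in each library, by 2.01-fold, 1.64-fold and 1.79-fold. Platelet RNA markers other than Pf4, which had 146.0, 272.6 and 205.3 TPM, were at most 0.84 TPM.

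The next gene of the same cluster, P2ry14, a receptor for UDP-glucose and the highest of 5 other P2Y genes, exceeded both, with 10.3, 13.7 and 7.75 TPM. It lies 54273 bases from P2ry13 on the same strand. The 3 receptor genes lie within the span of Med12l, a Mediator-subunit gene on the opposite strand that was at 0.130 ± 0.0458 TPM (SD, n = 3). In each of these receptor genes the order of libraries by TPM was the same, replicate 2 highest and replicate 3 lowest.

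P2ry12 is annotated with 5 transcripts, among which its few reads were split unevenly. ENSMUST00000196583.4 was the largest on average, with 39.0 ± 9.06% of TPM in the first table and 37.4 ± 2.95% in the second (SD, n = 3). ENSMUST00000170388.5 ranged widely, its share having an SD of 11.8 points around a mean of 19.5% in the first table. With 136, 349 and 155 counts for the whole gene, no order among its smaller transcripts was read. P2ry13 has 1 annotated transcript.

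Entpd1 was the second highest of the genes. It spans chromosome 19 from 40612366 to 40741602 on the plus strand and had 63.6, 111 and 66.0 TPM, a mean of 80.3 ± 26.9 TPM (SD, n = 3), above 97.7% of nuclear protein-coding genes. Its level stayed below that of P2rx4 in replicates 1 and 3 and exceeded it in replicate 2, with Entpd1 to P2rx4 ratios of 0.723, 1.08 and 0.691. A processed pseudogene in its span, Gm8783, was at 1.03 ± 0.304 TPM, and the pseudogene Gm16027 and the intronic RNA gene AC166063.1 were at 0.0167 TPM and 0.

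Entpd1 can start at either of 2 annotated first exons, 47373 bases apart for the main transcripts, which give CD39 different first residues. The main transcript from the downstream exon, ENSMUST00000112231.8, took 87.0%, 77.1% and 87.9% of the gene's TPM in the first table, a mean of 84.0 ± 5.99% (SD, n = 3). The main transcript from the upstream exon, ENSMUST00000134063.7, took 0.550%, 5.27% and 0.970%. In the second table the downstream-start transcript took 45 ± 5.17% and the upstream-start transcript 31.3 ± 3.72%.

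Grouped by first exon, downstream transcripts took 97.5 ± 2.94% of the classified TPM in the first table and 61.6 ± 5.07% in the second (SD, n = 3). The downstream start was thus the larger in all 3 libraries of both tables, but the size of the upstream share rested on the table. These main transcripts also differ in length, 4221 and 2409 bases, and in their annotated last exons, so first-exon use is not measured alone.

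The 250 bases before each RefSeq start are shown because the transcript shares turn on which start is used. They are the RefSeq promoter windows of GRCm38.p6, plus strand, which the table held for 8 of the 10 genes; capitals mark matches to CCAAT or GAGGAA on either strand.
Entpd1 upstream start, chr19:40612116-40612365: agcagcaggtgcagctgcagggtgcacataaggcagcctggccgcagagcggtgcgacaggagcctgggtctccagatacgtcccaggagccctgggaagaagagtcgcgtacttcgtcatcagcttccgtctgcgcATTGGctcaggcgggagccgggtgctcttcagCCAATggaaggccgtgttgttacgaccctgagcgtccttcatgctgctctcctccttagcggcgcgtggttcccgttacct
Entpd1 downstream start, chr19:40659520-40659769: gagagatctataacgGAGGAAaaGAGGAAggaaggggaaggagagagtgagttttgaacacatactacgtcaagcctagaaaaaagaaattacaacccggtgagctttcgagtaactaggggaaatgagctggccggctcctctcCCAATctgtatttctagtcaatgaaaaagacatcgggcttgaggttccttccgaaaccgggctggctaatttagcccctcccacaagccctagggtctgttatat
Searched on both strands were CCAAT, bound by NF-Y; GAGGAA, a form of the PU.1 site of myeloid genes; GGGCGG, the GC box; and TATAAA, the TATA box. The upstream window held CCAAT at -113, as ATTGG on the opposite strand, and at -81, counted from the RefSeq start to the first base of the match. The windows do not lie exactly 47373 bases apart, as the starts of the main transcripts do. A RefSeq start therefore need not be the first base of the transcript whose share is given. The downstream window held CCAAT at -105 and GAGGAA at -235 and -227, and neither window held the other motifs searched. Of 32851 such windows genome-wide, 33.8% held CCAAT, 23.3% GAGGAA, 32.7% GGGCGG and 12.4% TATAAA, so these matches are common and are given only as a description.

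Nt5e, on chromosome 9 at 88327197 to 88372092, plus strand, was at the limit of detection. It had 4, 0 and 4 counts in replicates 1, 2 and 3, which were 0.0300, 0 and 0.0200 TPM. The exact 95% Poisson interval was 1.09 to 10.2 counts around each 4, and reached 3.69 counts for the 0 of the deepest library. The one-sided limit commonly used for a 0, 3 counts, was 0.0562 CPM there. Nt5e had 0.175, 0 and 0.115 CPM, beside summed stromal marker counts of 5467.92, 15 and 37; stromal cells are known to carry CD73, and their part in the Nt5e counts was not tested. The second estimator assigned 7.25, 3.33 and 7.51 counts to Nt5e.

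Adora2b, a low-affinity adenosine receptor, was the higher of the pair of adenosine receptors. It lies on chromosome 11 at 62248984 to 62266453, plus strand, and had 19, 26 and 42 counts, or 0.25, 0.22 and 0.4 TPM, a mean of 0.290 ± 0.0964 TPM (SD, n = 3). Adora2a, the high-affinity receptor known to be raised by lipopolysaccharide in macrophages over hours, lies on chromosome 10 at 75316877 to 75334784, plus strand. It had 13, 16 and 8 counts, or 0.13, 0.09 and 0.05 TPM, a mean of 0.09 ± 0.04 TPM (SD, n = 3).

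Counting error was wide at these levels. The 95% Poisson intervals of Adora2a were 6.92 to 22.2, 9.15 to 26.0 and 3.45 to 15.8 counts in replicates 1, 2 and 3. For Adora2b they were 11.4 to 29.7, 17.0 to 38.1 and 30.3 to 56.8 counts. Such intervals cover counting error only. Both genes were above 0 in every library, and their means ranked above 51.7% (Adora2b) and 47.3% (Adora2a) of nuclear protein-coding genes.

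In order of mean TPM the genes ran P2rx4, Entpd1, P2ry6, P2rx7, P2ry2, P2ry13, P2ry12, Adora2b, Adora2a and Nt5e. Neighbours were compared within each library as the log2 ratio of their TPM with 0.1 added, in 9 pairs. The order came from the means of these same libraries, so the direction of each pair was largely fixed in advance. For 8 pairs the ratio kept its sign in 3 of 3 libraries and its mean was larger than its SD. The exception was P2rx4 over Entpd1, at 0.30 ± 0.35, with replicate 2 at -0.11. With 3 libraries a two-sided exact sign-flip permutation test gives at best p = 0.25, which those 8 pairs reached, while P2rx4 over Entpd1 had p = 0.5; no pair could pass 0.05 in this design, before or after adjustment.

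The step from P2ry12, the lowest gene above 1 TPM, to Adora2b was 2.21 ± 0.81 log2 units (SD, n = 3), and 1.07 with 1 in place of 0.1 added to the TPM. P2rx7 over P2ry2 was 1.87 ± 0.13 and P2ry6 over P2rx7 1.45 ± 0.31, and with 1 added these steps were 1.68 and 1.40. Without replicate 2, P2ry12 over Adora2b was 1.83 and P2rx7 over P2ry2 1.89, so no step was ranked the widest. Entpd1 over P2ry6 was 0.78 ± 0.18, P2ry13 over P2ry12 0.81 ± 0.14 and P2ry2 over P2ry13 0.55 ± 0.43. Among the lowest genes the steps were 1.03 ± 0.62 for Adora2b over Adora2a and 0.69 ± 0.32 for Adora2a over Nt5e, and 0.24 and 0.10 with 1 added; the step to Nt5e rests on at most 4 counts per library.

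Whether libraries differed by more than counting error was tested for each gene with a chi-square test of its counts against Poisson sampling at TMM-scaled library sizes, over the 13237 genes averaging at least 10 counts, with Benjamini-Hochberg adjustment over all of them. Of the 10 genes 9 were tested, Nt5e being too low, and 7 passed an adjusted p of 0.05. Of all genes tested 67.9% passed, so that passing is the usual case and is not particular to these genes. Without replicate 2, the deepest library, 3 of 9 passed, beside 33.4% of all genes tested.

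P2ry6 stood at the even end. It had 135, 134 and 132 CPM in replicates 1, 2 and 3, a highest-to-lowest ratio of 1.02, and did not pass (chi-square 0.711, adjusted p = 0.739). Its biological coefficient of variation in edgeR, 10.4%, was undercut by 1.26% of the 11576 nuclear protein-coding genes averaging at least 10 counts. In TPM the same gene ran between 38.7 and 56.5 and was highest in replicate 2, the library with the largest protein-coding share.

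P2rx4 and Entpd1 passed by the largest margins of the 9 genes. They also had the most counts, and this chi-square grows with counts at a given relative spread, so its size does not rank spread. Their biological coefficients of variation in edgeR were 13% and 12.1%, beside a median of 17.3% over all genes averaging at least 10 counts. The 9 genes ran from 10.4% (P2ry6) to 50.5% (Adora2a). P2rx4 had 332, 286 and 342 CPM, a ratio of highest to lowest of 1.20 (chi-square 246, adjusted p = 4.99e-53). Entpd1 had 455, 508 and 435 CPM, a ratio of 1.17 (chi-square 261, adjusted p = 3.34e-56). Replicate 2 was thus the lowest library for P2rx4 and the highest for Entpd1 on the CPM scale, although both were highest there in TPM. P2rx7 and P2ry2 also had their lowest CPM in replicate 2, with 99.7, 86.2 and 96.7 CPM (adjusted p = 2.34e-09) and 21.9, 16.3 and 19.6 CPM (adjusted p = 6.17e-07).

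P2ry13 and P2ry12 were lowest in replicate 3. P2ry13 had 15, 12.9 and 9.17 CPM, a ratio of 1.63 (adjusted p = 1.96e-09), and P2ry12 had 5.96, 6.54 and 4.47 CPM, a ratio of 1.46 (adjusted p = 0.00077). Their neighbour P2ry14 had 31.7, 28.4 and 22.1 CPM (adjusted p = 1.59e-11). All 3 genes of the cluster were thus lowest in replicate 3 on both scales.

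Adora2b differed between libraries, with 0.832, 0.487 and 1.21 CPM, highest in replicate 3 (adjusted p = 0.00165). Adora2a, with 0.569, 0.3 and 0.231 CPM, did not pass (adjusted p = 0.107), although its ratio of highest to lowest, 2.47, was close to the 2.49 of Adora2b. Replicate 1 had the highest CPM for 5 of the 9 genes tested, among them the nearly even P2ry6, replicate 2 for 2 and replicate 3 for 2. Among all genes tested these shares were 26.2%, 44.3% and 29.5%.

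**Figure D4:**
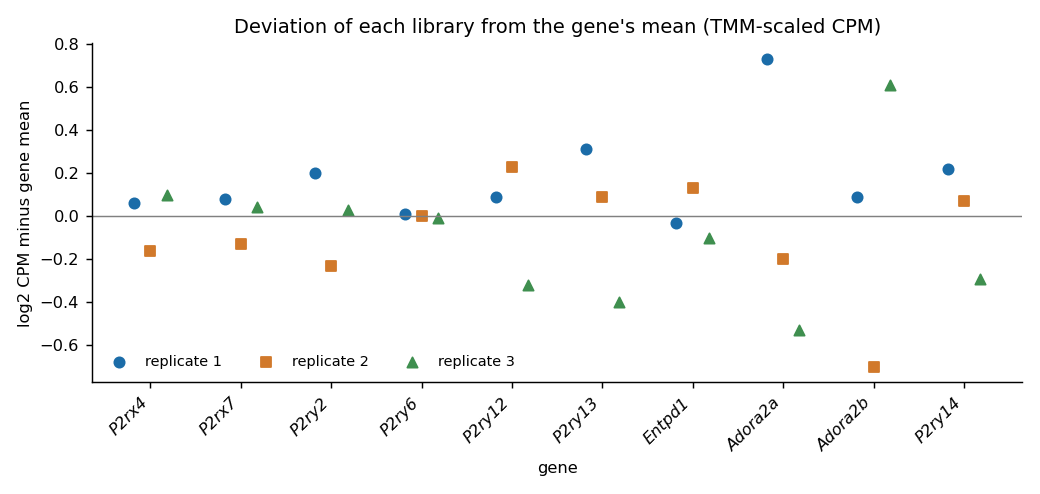
Difference of each library's log2 CPM from the gene's mean over 3 libraries, for the 9 tested genes and P2ry14. P2ry6 lies within a ratio of 1.02 between libraries, P2ry12, P2ry13 and P2ry14 are lowest in replicate 3, and Adora2a and Adora2b spread the most, by ratios of 2.47 and 2.49.

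Other genes named for the same receptor families were mostly low or at 0. None of 5 other P2X genes reached 1 TPM; P2rx6 was the highest at 0.0833 ± 0.0351 TPM and P2rx2 had 0 counts in all libraries. Of 5 other genes with a P2ry symbol 2 reached 1 TPM, and 1, P2ry14, reached 10 TPM on average, while P2ry4 had 0 counts. These 5 were listed by symbol, which does not by itself make a gene a nucleotide receptor. Neither of the 2 other adenosine receptors reached 1 TPM. Adora3 was at 0.210 ± 0.0361 TPM, between Adora2b and Adora2a, and Adora1 had 0 counts.

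Entpd1 was the only nucleotide hydrolase of the lists above 10 TPM. Of 12 others 5 reached 1 TPM, led by Entpd7, an intracellular family member, at 7.24 ± 0.400 TPM, and Entpd8 had 0 counts.

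The adenosine-handling list of 10 genes holds nucleoside transporters, adenosine deaminase, adenosine kinase, AMP deaminases, Pnp and Dpp4. Of these 10 genes, 7 reached 1 TPM and 3 reached 10 TPM. Of the 22015 nuclear protein-coding genes, 9403 reached 1 TPM and 3961 reached 10 TPM. In the list Pnp, a purine nucleoside phosphorylase, was the highest at 51.8 ± 3.31 TPM. Its counts were not whole and so may hold reads shared with a related copy. Dpp4, the adenosine deaminase-binding peptidase of human cells, was the lowest at 0.117 ± 0.0208 TPM. All 4 genes of nucleotide release reached 1 TPM and none 10 TPM, from Lrrc8a, a subunit of volume-regulated anion channels, at 7.71 ± 0.782 TPM to Slc17a9, the vesicular nucleotide transporter, at 1.09 ± 0.0757 TPM.

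Partners downstream of the receptors were present throughout. All 6 genes of the P2X7 and inflammasome list reached 10 TPM, from Il1b, a pro-inflammatory cytokine, at 153 ± 28.4 TPM to Gsdmd, the pore-forming protein of pyroptosis, at 15.5 ± 2.71 TPM. All 11 G proteins and effectors reached 1 TPM and 7 reached 10 TPM. Gnas, which encodes the stimulatory G protein through which Adora2a and Adora2b signal and lies in a locus of overlapping transcripts, was the highest at 212 ± 59.5 TPM. Gna11, of the Gq family used by P2ry2 and P2ry6, was the lowest at 1.31 ± 0.318 TPM (SD, n = 3 for each).

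Between libraries, 5 of the 6 inflammasome genes, 9 of the 11 G proteins and effectors, 6 of the 10 adenosine-handling genes, 3 of the 4 release genes and 5 of 6 other hydrolases tested passed the chi-square test. Only P2ry14 among 4 other P2Y genes tested passed, and neither of 2 P2X genes nor the 1 other adenosine receptor tested did. These counts stand beside the 67.9% of all genes that passed.

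**Figure D5:**
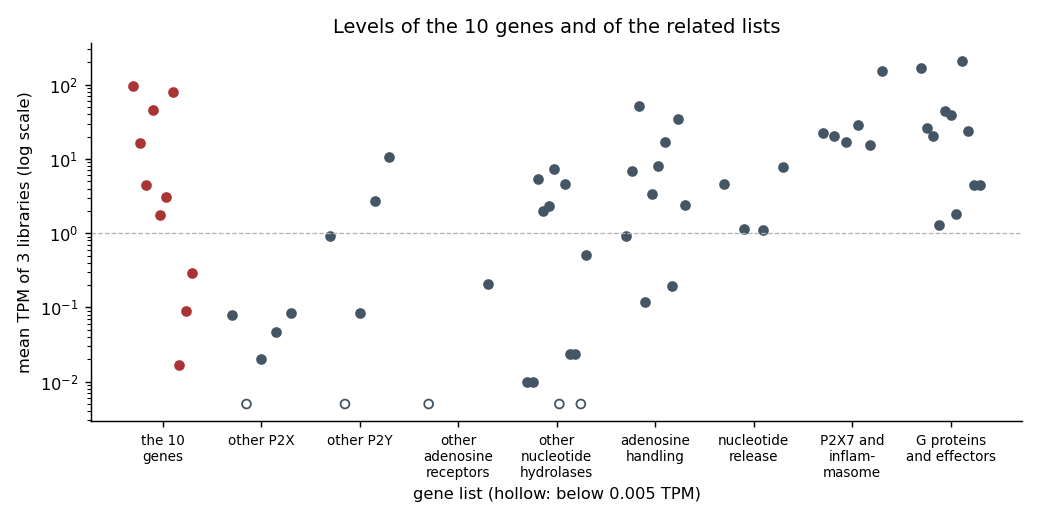
Mean TPM over 3 libraries (log axis) of the 10 genes and of each related list, 1 point per gene, hollow points below 0.005 TPM, dashed line at 1 TPM. All inflammasome genes lie above 10 TPM, whereas no other P2X gene and no other adenosine receptor reaches 1 TPM.

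Cell type markers outside the macrophage list were mostly low. Platelet markers reached 1 TPM for 1 of 6 (Pf4), endothelial markers for 2 of 5 (Vwf the highest), neutrophil markers for 3 of 5 (S100a9) and dendritic markers for 1 of 5 (Batf3). No T or NK cell, B cell or mast cell marker reached 1 TPM, Cd3g, Cd2 and Mcpt4 being at 0 in all libraries, with Lck, Cd79b and Kit the highest of their lists. Summed neutrophil markers had 15.6, 50.5 and 32.6 TPM in replicates 1, 2 and 3, and their part in the differences between libraries was not tested.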

How the data were processed

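Per the labels, libraries started from 1 µg of RNA, cut to 250 to 400 nt. Readme files deposited by the authors name mm10 and GENCODE M21. The gene and first transcript tables the authors deposited hold expected counts (estimated reads, not normalized) and TPM. In the percent column the authors deposited, the TPM shares of a gene's transcripts sum to the whole gene. The second transcript table deposited by the authors holds estimated counts and TPM from another estimator. No source used here names the aligner, the estimators or the strand setting, so reads of overlapping genes on opposite strands cannot be told apart. Deposited TPM are shares of everything in a library, so abundant short RNAs lower the TPM of messenger RNAs.

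Rows that are not annotated genes held 0.462%, 0.109% and 0.0969% of counts in replicates 1, 2 and 3 and were left out. Expected counts were rounded for the chi-square test, whose library sizes used TMM factors from edgeR 4.0.16 in R 4.3.3. That test was tested on simulated data. DESeq2 1.42.0 size factors, library totals, no count filter, the second table, rescaling to protein-coding genes and leaving out each library were the alternatives. Python 3.11.15 and scipy 1.17.1 gave the exact permutation tests and Poisson intervals. All 10 genes had whole gene-level counts. The genes and lists were chosen with earlier results of these data known, and the text names, besides the 10 genes, the highest and lowest gene of each pathway list, the highest of each marker list and genes overlapping a member. A few marker genes are not reported here. The replicates share a donor record, so SDs and p-values measure only the spread between these libraries.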

Additional observations from a re-analysis of the deposited data

How the results depend on the processing

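Leaving out 1 library at a time, between 4374 and 7564 genes passed the between-library test, beside 8984 with all 3, and between 3 and 7 of the 9 tested genes of the set, beside 7. The lowest values of both came without replicate 2, the deepest library, and the cause was not tested. DESeq2 size factors, library totals and the second table left 7 of 9 genes past the threshold, and testing every gene with at least 1 count gave 8 of 10. The mean log2 ratio of neighbours in level stayed positive in all 9 pairs under the pseudocount of 1, the rescaling, the second table and each left-out library. With TPM rescaled to nuclear protein-coding genes, each gene was 3.65 to 4.33 times higher and 6 in place of 4 genes exceeded 10 TPM. Adora2b was then at 1.14, above the line of 1 TPM. In the second table levels were 0.369 to 0.654 times the deposited gene values. There 3 genes exceeded 10 TPM, and P2ry12 was at 0.84 TPM, below 1 TPM. Nuclear protein-coding genes took 8.82%, 21.4% and 5.91% of the second table's TPM in replicates 1, 2 and 3. With both rescaled to those genes, means in the gene and second tables were 63.5 and 60.1 for P2rx7 and 171 and 164 for P2ry6. They were 362 and 484 for P2rx4 and 293 and 386 for Entpd1. The P2rx4 to P2rx7 ratio was 5.79 in the gene table, 8.22 in the second table and 9.91 on its coding transcripts. The median biological coefficient of variation over all genes averaging at least 10 counts was 17.3% in edgeR and 10.2% in DESeq2. No paired analysis was possible because there is 1 group. Low counts limit Nt5e, Adora2a and Adora2b, which had at most 4, 16 and 42 counts in any library.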
